A study of Mus musculus with 5 samples.

Results

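PU.1, encoded by Spi1, its close relative Spib, the C/EBP factors encoded by Cebpa, Cebpb, Cebpd and Cebpe, and the repressor Gfi1 were followed across 5 samples of mouse bone marrow cells. They were chosen by gene symbol: every probe set of the array value table whose platform annotation carried 1 of these 7 symbols was taken. Of the 7 genes, 6 had a named probe set, out of 8251 named genes in all, and Cebpe was not analysed here. Spib had 2 probe sets and each other gene 1, which gave 7 probe sets. The samples are described by their labels as progenitors of dendritic cells (DC) from bone marrow that carry FLT3, the cytokine receptor that supports early progenitors, and CD11b, the Itgam integrin chain. All 5 fall into 1 group, numbered 1 to 5, with 1 array of total RNA each. Strain, age, pooling and treatment are not given in the sources used here, so no conditions could be compared, and the spread between samples may be biological or technical.

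PU.1 is an ETS factor needed for both myeloid and lymphoid cells, and a high amount of it is known to favour macrophage and dendritic fates. The C/EBP factors are leucine zipper proteins that bind DNA as dimers: C/EBP-alpha opens the granulocyte and monocyte path, C/EBP-beta and C/EBP-delta act in inflammation and stress granulopoiesis, and C/EBP-epsilon drives the late granule genes of neutrophils. Gfi1 is a zinc finger repressor that supports granulocytes and counters PU.1, while Spi-B is known from B cells and plasmacytoid dendritic cells.

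RefSeq promoter windows (build GRCm38.p6, 250 bases before to 50 after the annotated start) matched 4 of the 7 genes, with 5 windows in all. Those of Cebpa and Cebpb are shown because their signals differed most in pattern between samples, and that of Spib because its signal was high in some samples only. Capitals mark TATAAA (the TATA box), the CCAAT box or the shorter PU box GAGGAA on either strand.
Cebpa, chr7:35119043-35119342, + strand: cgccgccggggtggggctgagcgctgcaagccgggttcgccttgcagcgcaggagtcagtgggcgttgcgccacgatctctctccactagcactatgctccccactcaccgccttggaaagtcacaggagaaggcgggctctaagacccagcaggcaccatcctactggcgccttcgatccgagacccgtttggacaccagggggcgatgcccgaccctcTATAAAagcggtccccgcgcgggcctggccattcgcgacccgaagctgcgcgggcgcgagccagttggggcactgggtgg
Cebpb, chr2:167688665-167688964, + strand: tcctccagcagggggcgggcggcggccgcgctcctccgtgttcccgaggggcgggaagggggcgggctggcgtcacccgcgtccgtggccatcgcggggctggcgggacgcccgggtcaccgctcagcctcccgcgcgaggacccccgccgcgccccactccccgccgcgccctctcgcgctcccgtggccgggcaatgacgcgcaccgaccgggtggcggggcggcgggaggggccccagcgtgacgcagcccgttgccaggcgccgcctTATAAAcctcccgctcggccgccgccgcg
Spib, chr7:44532022-44532321, - strand: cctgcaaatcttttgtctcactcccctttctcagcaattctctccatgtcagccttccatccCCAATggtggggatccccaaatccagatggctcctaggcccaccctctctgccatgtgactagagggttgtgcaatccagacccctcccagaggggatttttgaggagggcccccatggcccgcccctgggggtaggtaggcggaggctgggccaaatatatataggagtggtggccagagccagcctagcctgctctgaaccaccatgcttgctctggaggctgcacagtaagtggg
The PU.1 motif GAGGAAGT, the C/EBP motif TTGCNNAAT and the Gfi1 motif AAATCA were searched on both strands and had 0 exact matches in the 5 windows. Other forms of the C/EBP and Gfi1 motifs were not searched. Across all 32851 windows of the same length, 3.20%, 2.40% and 14.0% held them. TATAAA stood 30 bases before the start of Cebpa and 22 bases after the annotated start of Cebpb, and 13.6% of all windows hold it. CCAAT stood 188 bases before the start of Spib (37.4% of all windows), and GAGGAA, which the longer PU.1 motif contains, had 0 matches (28.3% of all windows). The window of Cebpb was 80.7% G and C, that of Cebpa 67.3% and that of Spib 58%, against a median of 52.7%. These letters are a description of the windows and no measure of binding.

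Signals are array intensities after each array was multiplied to a common median of 103.4, which serves as the limit below; a probe set's height depends on its probes, so signals of different genes are not ranked against each other. Both genes of the sort lay above this limit on all 5 arrays, Flt3 between 318 and 1268 and Itgam between 223 and 789. Of all named genes, 44.5% were above this limit on all arrays. The early granule genes (4 of 4 measured) and the neutrophil genes (8 of 10) mostly were. So were the monocyte and macrophage genes (7 of 10), while those of conventional dendritic cells were mostly not (2 of 10). Of the mast cell, basophil and eosinophil genes 3 of 6 were, and of erythroid genes 0 of 5. Of the plasmacytoid genes 0 of 5 were above it on all arrays, of B cell genes 1 of 9 and of T and NK cell genes 0 of 7. The signal at the 3' end over that at the 5' end of the actin control, a sign of RNA integrity, was 1.08, 3.003, 4.15, 5.20 and 2.55 in samples 1 to 5, and that of the Gapdh control 0.896, 1.06, 4.52, 3.42 and 2.01.

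PU.1 had signal in every sample. The Spi1 probe set read 1056, 587, 517, 919 and 1473 in samples 1 to 5, with a mean of 910.5 ± 386 (SD, n = 5). Sample 5 was the highest and samples 2 and 3 the lowest, a range of 2.85-fold. The lowest of these values stood at percentile 84.1 of its array. Its mean log2 signal was 3.03 ± 0.25 (SE) above the array median (limma, adjusted p = 0.000233). SE here and below is that of limma, whose variance draws on all probe sets, and not of the 5 values alone.

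Spib had signal above the limit in some samples by 1 probe set and in none by the other. Probe set 93388_s_at read 270, 25.5, 118, 41.2 and 24.4 in samples 1 to 5, above the limit in samples 1 and 3 only. Its mean was 95.7 ± 104 (SD, n = 5), and its mean log2 signal of -0.66 ± 0.57 (SE) from the median did not pass the test (limma, adjusted p = 0.331). The range of 11.03-fold became 4.82-fold without sample 1. Probe set 93657_at read 30.5, 28.7, 15.2, 29.4 and 29.9, below the limit on all arrays, and did not show the high value of sample 1; 4 of these 5 values were also below 30.04, the floor set before log2 was taken. Samples 2 and 5 of 93388_s_at lay below this floor too. With both probe sets averaged, the mean log2 signal of Spib was -1.22 from the median and passed the test (limma, adjusted p = 0.00485). That average takes in the floored values of 93657_at, whose SD of log2 signal was 0.0088. The pass therefore cannot be separated from the floor. Among cells in which Spib is known, the summed signal of 9 B cell markers was 1408, 1410.1, 946, 1337 and 1076 and that of 5 plasmacytoid markers 617, 1813, 415, 420.2 and 582 in samples 1 to 5. The high plasmacytoid sum of sample 2 rests on Cox6a2, at 1274 there and 16.8 to 155 elsewhere. The largest B cell value in each sample was that of Ighm, at 313 to 725. Cox6a2 and Ighm were named after their values were seen. The markers did not follow Spib together: of the B cell receptor chains, Cd79a read 265, 28.6, 16.7, 123 and 24.4 and Cd79b 47.8, 82.9, 33.8, 117 and 233 in samples 1 to 5, both outside the naming rule and chosen after their values were seen. The part of such cells in the Spib signal was not tested.

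Cebpa, Cebpb and Cebpd all had signal in every sample. Cebpa, the factor of the granulocyte and monocyte path, read 1964, 1975, 1310.1, 2144 and 1029 in samples 1 to 5, with a mean of 1684 ± 486 (SD, n = 5). Samples 1, 2 and 4 lay close together, and samples 3 and 5 lower. Its mean was 3.97 ± 0.19 (SE) log2 units above the median (limma, adjusted p = 2.82e-05).

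Cebpb, the stress and macrophage member, read 3615, 1084, 2318, 1546 and 2509, with a mean of 2215 ± 973 (SD, n = 5). Sample 1 was the highest and sample 2 the lowest, a range of 3.33-fold, the widest of the 5 genes above the limit. Its mean was 4.30 ± 0.27 (SE) log2 units above the median (limma, adjusted p = 8.02e-05).

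Cebpd, an early response member of the family, read 1036, 689, 1118, 1609 and 1229, with a mean of 1136 ± 332 (SD, n = 5). Sample 2 was the lowest, and without it the range of 2.33-fold was 1.55-fold. Its mean was 3.41 ± 0.18 (SE) log2 units above the median (limma, adjusted p = 4.43e-05).

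Gfi1, the repressor, read 1204, 466, 764, 1136 and 590.4 in samples 1 to 5, with a mean of 832 ± 327 (SD, n = 5). Samples 1 and 4 were high and sample 2 the lowest, a range of 2.59-fold. Its mean was 2.91 ± 0.24 (SE) log2 units above the median (limma, adjusted p = 0.000229).

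**Figure D1:**
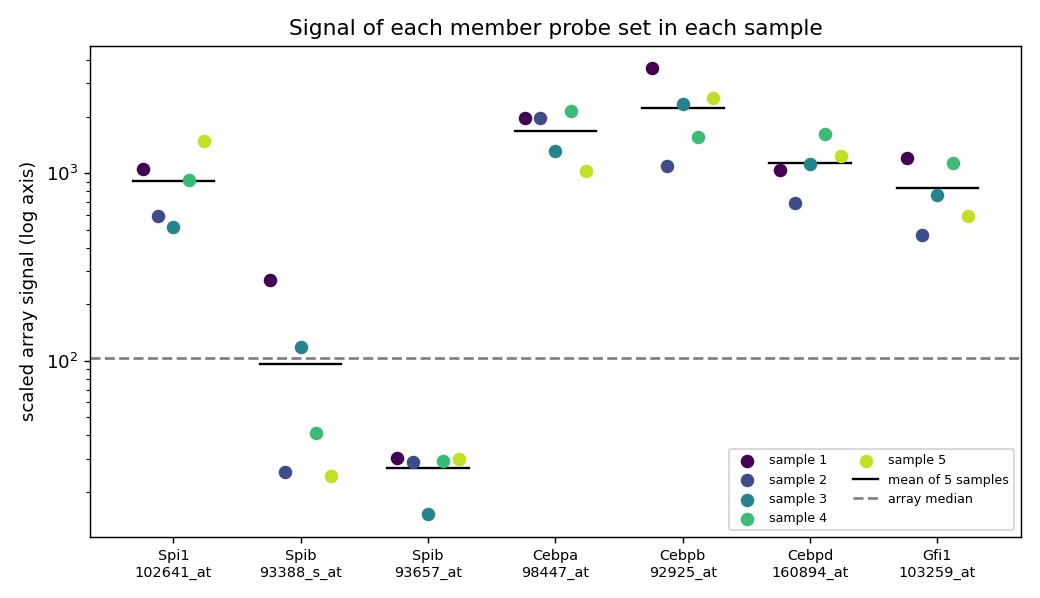
Scaled array signal (log axis) of the 7 member probe sets in each of 5 samples, with the mean of 5 samples as a black line and the array median of 103.4 as a dashed line. Spi1, Cebpa, Cebpb, Cebpd and Gfi1 lie above the median in every sample, Spib 93388_s_at in samples 1 and 3 only, and Spib 93657_at in none.

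In all, 5 of 6 measured members were above the median on all 5 arrays, as were 44.5% of named genes. The same 5 were above the 75th percentile on all 5 arrays, as were 21.7% of named genes. In the limma test of mean signal against the median, 5 of 6 members were called higher, as were 45.4% of named genes, and 0 lower (28.7%).

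The spread of the 5 genes above the limit lay within that of other genes. Their SDs of log2 signal were 0.62 for Spi1, 0.46 for Cebpa, 0.67 for Cebpb, 0.44 for Cebpd and 0.59 for Gfi1, against a median of 0.46 over tested genes. The SD of Cebpb was larger than that of 77.6% of tested genes and that of Cebpd larger than that of 46.4%. The limma test of spread called 0 of the 5 (lowest adjusted p = 0.943, for Cebpb) and 0% of 5814 probe sets, of which 4.99% had an unadjusted p under 0.05; of the 5 members 0 had one. In the non-robust fit it called 0 as well, with 294 probe sets at an unadjusted p under 0.05. This test ranks genes against each other, so it does not show that the samples were alike.

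The members did not move as a block. Deviations are given as log2 signal minus the gene's own mean over 5 samples. In sample 2, Cebpb (-0.91), Gfi1 (-0.74), Cebpd (-0.67) and Spi1 (-0.53) were all below their means while Cebpa (0.28) was above its own. Sample 2 held the lowest value of 3 of the 5 genes, and of 18.4% of all tested genes; the median deviation of tested genes there was 0.06. Sample 5 showed another arrangement, with Spi1 at 0.80 and Cebpa at -0.66. In sample 4 Cebpd (0.55), Gfi1 (0.54) and Cebpa (0.40) were above their means, as were 69.1% of tested genes, whose median deviation was 0.20. In sample 1 Cebpb (0.83) and Gfi1 (0.63) had their highest values; the top 10% of genes by signal lay at a median of -0.19 in that sample.

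**Figure D2:**
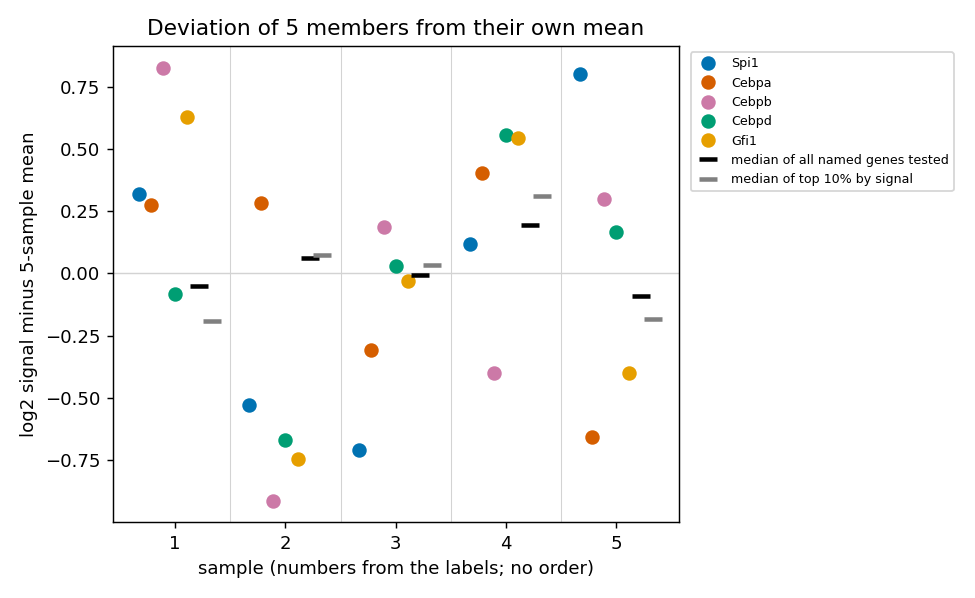
Log2 signal minus the 5-sample mean for Spi1, Cebpa, Cebpb, Cebpd and Gfi1 in each sample (points), with the median over all tested named genes and over the top 10% by signal (bars). In sample 2 Cebpa is at 0.28 and the other 4 genes lie between -0.53 and -0.91; in sample 5 Spi1 is at 0.80 and Cebpa at -0.66.

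The ratio of a pair of signals removes each array's own scale, so its change between samples was followed for all 10 pairs of the 5 genes; its absolute height has no meaning. The log2 ratio of Cebpa over Cebpb, factors that can replace each other in part, lay 1.20 above its mean in sample 2 and 0.80 above it in sample 4, and at -0.55, -0.49 and -0.96 in samples 1, 3 and 5. Samples 2 and 4 thus stood apart from the other 3, and the ratio differed 4.44-fold between the extremes. Leaving out any 1 sample kept that range at 3.35-fold or more.

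Spi1 over Cebpa, whose balance is known to weigh in the choice between monocytes and granulocytes, changed 4.82-fold, with 1.46 in sample 5 and -0.81 in sample 2. Without sample 5 the range was 1.81-fold. Spi1 over Gfi1, the pair of PU.1 and the repressor that counters it, changed 3.68-fold and was likewise highest in sample 5, at 1.20, with a range of 1.86-fold without that sample. Both rest on sample 5, where Spi1 was high and Cebpa and Gfi1 were below their means.

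The closest pair was Cebpd and Gfi1, with a root mean square difference of 0.41 log2 units between their centred signals over 5 samples, and the farthest Cebpa and Cebpb, at 0.84. For comparison, the median difference to all 4556 other tested genes was 0.56 for Cebpd, 0.65 for Gfi1, 0.54 for Cebpa and 0.77 for Cebpb. The range of Cebpd over Gfi1 fell from 2.42-fold to 1.47-fold without sample 1. The range of Cebpa over Gfi1 fell from 2.60-fold to 1.16-fold without sample 2, the sample in which they parted. No test of these pairs was made.

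**Figure D3:**
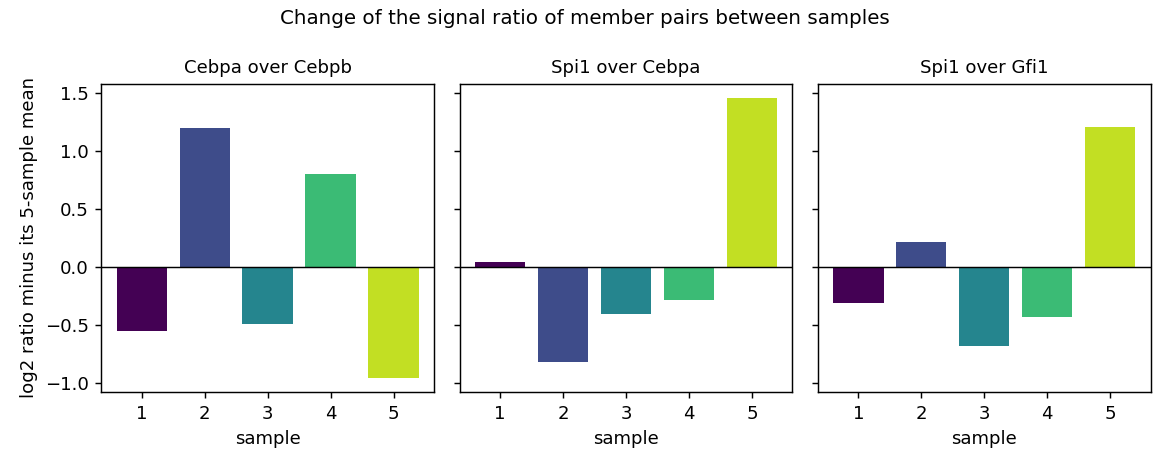
Log2 signal ratio minus its 5-sample mean in each sample, for Cebpa over Cebpb, Spi1 over Cebpa and Spi1 over Gfi1. Cebpa over Cebpb is high in samples 2 (1.20) and 4 (0.80), and both ratios of Spi1 are highest in sample 5 (1.46 and 1.20).

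The genes most like each member across the 5 samples were found by the same root mean square difference among tested genes. Nearest to Spi1 were Hinfp at 0.09, Ptpa, a phosphatase activator, at 0.12 and the glycolytic gene Pkm at 0.12. Nearest to Cebpa were S100a10 at 0.08, Nckap1l, an actin regulator of blood cells, at 0.09 and Gamt at 0.09. Nearest to Cebpb were the polymerase II subunit gene Polr2d at 0.06, Gna12 at 0.09 and Cdk7 at 0.13. Nearest to Cebpd were Polr2a, the large polymerase II subunit, at 0.05, Rfc5 at 0.06 and Med23 at 0.07. Nearest to Gfi1 were Kdm3b at 0.11, Entr1 at 0.11 and Myb, the progenitor factor, at 0.12; Myb read 3316, 1524, 2600.3, 3230 and 1738. With this many genes and 5 samples, close matches are easily found, and 7 of the 15 stayed among the nearest 3 after quantile normalization.

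Relatives of the members had signal in part. Of 12 measured ETS, C/EBP and Gfi1 relatives, 5 were above the limit on all arrays (44.5% of named genes were). The limma test called 5 higher and 2 lower than the median (45.4% and 28.7% of named genes). The shares above the limit and called higher were near those of all genes. Fli1, an ETS factor of blood and endothelium, read 309 to 534, Cebpg, the short C/EBP partner, 186 to 253, Elf4 163 to 288 and Gabpa 152 to 408. Ddit3, the stress member of the C/EBP family, read 632 in sample 2 and 123 to 242 elsewhere. Gfi1b, the erythroid relative of Gfi1, read 107, 25.04, 212, 135 and 141, and Spic, the ETS factor of red pulp macrophages, 12.8 in sample 1 and 156 to 170 in samples 2 to 5. The 2 called lower were Ets1, at 2.55 to 108 (limma, adjusted p = 0.0366), and Elk3, at 9.16 to 95.4 (limma, adjusted p = 0.0428).

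Of 18 measured partners, 8 were above the limit on all arrays (44.5% of named genes were), or 12 on the other 4 arrays without sample 1 (46.2%); the limma test called 9 higher and 3 lower (45.4% and 28.7% of named genes). The share above the limit was near that of all genes. Cbfb, the partner chain of Runx proteins, read 2112 to 6042, Id2, an inhibitor of E proteins, 1779 to 6015, and Rcor1, a corepressor that Gfi1 recruits, 293 to 759. Runx1, which switches on Spi1 in early blood cells, read 399 in sample 2 and 131 to 188 elsewhere. Jun, a coactivator of PU.1, read 891 in sample 2, 740 in sample 4 and 217 to 285 in the others. The 3 called lower were Irf4, at 5.35 to 17.8, Maf, at 15.4 to 50.2, and Egr2, at 9.67 to 92.5. Irf4, a partner of PU.1 in B cells and some dendritic cells, was below the floor on every array. Irf8, the partner of PU.1 in monocytes and dendritic cells, outside the naming rule and chosen after its values were seen, read 82.6 in sample 1 and 208 to 368 in the others.

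Known targets had signal in most cases. Of 17 measured PU.1 targets, 14 were above the limit on all arrays (44.5% of named genes were). The limma test called 14 higher (45.4% of named genes). The list holds Flt3 and Itgam, on whose proteins the cells were chosen. It also shares Csf1r, Cd14, Fcgr1 and Msr1 with the monocyte and macrophage genes above, and Csf3r with the neutrophil genes. Csf1r, the M-CSF receptor, read 397, 491, 376, 1000.2 and 225 in samples 1 to 5, Csf2ra, a chain of the GM-CSF receptor, 629, 546, 280.0, 434 and 718, and Csf3r, the G-CSF receptor, 631, 794, 462, 313 and 203. Csf2ra was thus highest in sample 5 and lowest in sample 3, where Spi1 was also highest and lowest, while Csf1r and Csf3r were lowest in sample 5. Btk, a kinase of B and myeloid cells, held between 511 and 694, Cyba, an NADPH oxidase subunit, between 3503 and 8500, Itgb2, the partner chain of CD11b, between 1641 and 3061, and Cd14 between 384 and 762.

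Of 17 measured C/EBP targets, 16 were above the limit on all arrays (44.5% of named genes were). The limma test called 16 higher (45.4% of named genes). Itgam and Csf3r stand in both target lists. The C/EBP list also holds all measured early granule genes, all neutrophil genes but Cxcr2, and Lyz2 of the monocyte and macrophage genes. Its count is therefore largely the marker counts given above, not a separate result. Mpo, myeloperoxidase, read 7306, 3491, 4249, 8138 and 7239 in samples 1 to 5. Elane, neutrophil elastase, read 10647 in sample 1 and 2027 in sample 2, Prtn3 6429 and 1822 and Ctsg 8592 and 2678. Elane, Prtn3 and Mpo were lowest in sample 2, as were Cebpb, Cebpd and Gfi1, while Ctsg was lowest in sample 3 at 1643. Cebpa was not low in sample 2, where it read 1975, above its own mean. The later genes Lcn2, at 8148 to 22605, Lyz2, at 5731 to 16251, and Chil3, at 12477 to 60173, were all highest in sample 4. The summed signal of early granule genes was 32974, 10018, 10675, 19206 and 21607 in samples 1 to 5 and that of the neutrophil markers 50252, 171612, 125333, 257455 and 157272. Sample 1 was thus the highest for the first sum and the lowest for the second, though not for each gene. Mpo was highest in sample 4, and Lcn2 was lowest in sample 2. Both sums are of scaled signals: sample 1 was multiplied by 0.264 and the others by 1.27 to 1.56. The low place of sample 1 in the second sum depends on this scaling. The second sum rests mostly on a few very bright probe sets, such as that of S100a8 at 9540.2 to 82007. The part of differing shares of cells in the members' signals was not tested, and in such bulk samples fewer cells of a type and less RNA per cell cannot be told apart.

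Of 12 measured genes that Gfi1 is known to repress, 6 were above the limit on all arrays (44.5% of named genes were); limma called 7 higher and 2 lower (45.4% and 28.7%). The share above the limit was again near that of all genes. Csf1, the M-CSF gene, read 116, 372, 267, 429 and 118 and Id2 1779, 6015, 3882, 5920 and 2289 in samples 1 to 5. Both were high in sample 2, where Gfi1 was lowest, and also in sample 4, where Gfi1 was above its mean. Id1 read 238 to 459 and was highest in sample 1, where Gfi1 was highest too, and Cdkn1a, a cell cycle inhibitor, read 201 to 416. The 2 called lower were the progenitor factor Meis1, at 16.0 to 68.9, and Cdkn2b, at 9.82 to 43.5. Cebpa is itself on this list.

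**Figure D4:**
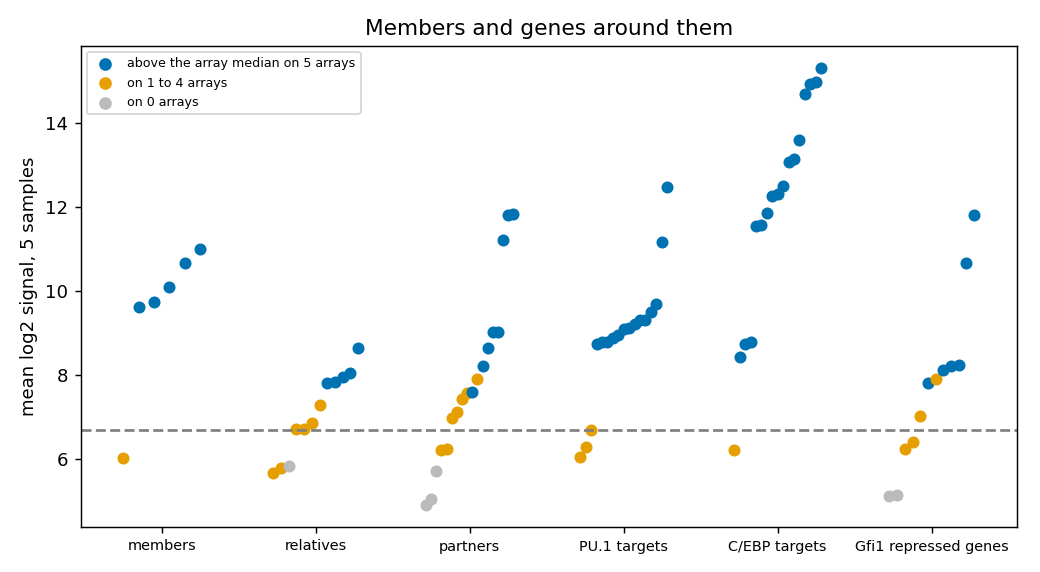
Mean log2 signal over 5 samples of each measured gene, by list, coloured by the number of arrays on which it was above the array median (dashed line). Points are ordered by height within a list, and heights of different probe sets do not rank transcripts. Above the median on all 5 arrays are 5 of 6 members, 14 of 17 PU.1 targets and 16 of 17 C/EBP targets. The same holds for 44.5% of all named genes.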

How the data were processed

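The deposited values were linear intensity values per probe set from 5 arrays, 1 per sample; per the labels, RNA preparation, labelling and hybridization followed an earlier publication, and the software and scaling are not given in the sources used here. Deposited medians were 392 in sample 1 and 66.5 to 81.2 in the others. The 66 control probe sets were left out of 12488, and arrays were scaled to 1 common median. Values under the 25th percentile (30.04) were raised to it before log2. Platform annotation gave 1 symbol to 10833 probe sets, several to 396, and did not list 1193; a gene with several was represented by its brightest on average.

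Mean log2 signal was tested against the array median, and sample variance against a trended F distribution (only where the mean exceeded the median), with limma 3.58.1 in R 4.3.3, robust fits, two-sided for the mean, with Benjamini-Hochberg adjustment over all probe sets tested and a threshold of 0.05. Both were run on simulated normal values without a floor, in which the raised spreads were far larger than those of the members. That run does not show how well smaller differences in spread, or floored genes, are handled. Genes named beyond the members were the first 4 of each list, the 4 highest and 4 lowest t past the threshold, outlying genes by Dixon's test at 95% and the 3 nearest in pattern. Members and lists were chosen with earlier results of these data known. No detection calls came with the values; the number of arrays limits the precision. Labels do not say whether samples came from separate animals, so p-values measure the spread between these samples, which may be technical.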

Additional observations from a re-analysis of the deposited data

Results flagged for a closer look

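Among 75 genes of the lists around the members, 4 had a sample far from the other 4 in log2 signal by Dixon's test (gap over range, critical value 0.71), and chance flags about 1 in 20. None of the 6 members was among them. Spic was low in sample 1 (gap 0.952), at 12.8 against 156 to 170 in the others. Gata1, the erythroid factor, was low in sample 5 (gap 0.729), at 12.3 against 83.4 to 122. Maf was high in sample 1 (gap 1), at 50.2, and Meis1 in sample 5 (gap 0.97), at 68.9. For Maf the other 4 samples, and for Meis1 3 of the other 4, lay below the floor, so these gaps depend on it.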

How the results depend on the processing

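The counts of members above the limit (5), called higher than the median (5) and called for spread (0) were the same in the values as deposited, after quantile normalization, with the floor at the 10th percentile, with all probe sets of a gene averaged and without any 1 sample. The first also held with limits at the 40th and 75th percentiles and with 3 of 5 arrays sufficing, the second in the non-robust fit, and the third in the non-robust fit and without the filter. List counts stayed within 1.5 times. Part of this sameness was fixed in advance. Each array was compared with its own median, so scaling, quantile normalization and the floor cannot change a count above the limit. A limit at the 40th percentile or 3 of 5 arrays sufficing can only raise it. Scaling also leaves unfloored log2 signals at the same distance from the array median. Such cases are among the comparisons counted next. Of 271 comparisons with an alternative, 263 kept their direction and side of the threshold or, with no test, moved by less than 1 SD or 1.5 times; the exceptions were signals of 5 members as deposited (Spi1 1309, Spib 234, Cebpa 2397, Cebpb 3828, Gfi1 1329), where sample 1 keeps its higher scale, Spib with averaged probe sets (limma adjusted p = 0.00485), the share of named genes at the 75th percentile (21.7%) and the nearest genes after quantile normalization (7 of 15). The TATA, CCAAT and shorter PU box searches and the ranges without 1 sample were added after seeing the data. No paired analysis was possible because the labels give 1 group. With 5 arrays and no detection calls, low signals such as those of Spib cannot be told from background.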

Other observations

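Samples 2 and 4, in which Cebpa over Cebpb was above its mean, also had the highest signals of Flt3, at 1212 and 1268 against 318 to 571 in the other samples, and of Id2, at 6015 and 5920 against 1779 to 3882. Klf4, a monocyte factor, read 1216 and 801 in samples 2 and 4 and 171 to 662 in the others. These genes were set beside the ratio after their values were seen, over 5 samples, and no test was made.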
